A study of Mus musculus with 15 samples.

Results

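The kidney of the 7-day-old mouse (PN7d) was set against that of the mouse embryo at day 16 (E16d) on microarrays, which gives the net change from a kidney that is still adding nephrons to a young functioning organ. The comparison holds 10 of the 15 arrays of the series, 5 at PN7d and 5 at E16d, chosen by the age in the sample labels. All mice were BALB/c and untreated, and the methods state that kidneys came from male animals. The remaining 5 arrays, of postnatal day 1 (PN1d), entered the model's estimate of the spread, and their means are given beside the changes. The methods speak of triplicates, whereas the study's results section and the labels give 5 samples at each age. No source used here says if an array held the kidneys of 1 animal or of several, and p-values cover the spread among arrays alone. Values are log2 intensities that the authors quantile-normalized. The median of all values, 6.22, served as the lower limit of what was tested. A value after ± is the SD of 5 arrays.

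The mouse kidney forms its nephrons from progenitors of the cap mesenchyme, which surround the tips of the branching ureteric bud and answer its signals. Induced cells become vesicles and S-shaped bodies and then divide their length into glomerulus, proximal tubule, loop of Henle and distal tubule, while the bud becomes the collecting duct. A stroma of fibroblast-like cells and a growing bed of capillaries lie between them. In the mouse this goes on for some days after birth, when the tubules also take over the reabsorption of salt, glucose, phosphate and amino acids and the metabolism that feeds it.

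A total of 9531 genes had a mean above 6.22 at 1 or more of the 3 ages and were tested. The threshold for calling a gene higher or lower was an adjusted p of 0.05 from limma, which 64.5% of genes passed. At PN7d 3082 genes (32.3%) were higher than at E16d and 3068 (32.2%) were lower. The change was over 1.5-fold for 1035 higher genes (10.9%) and 904 lower genes (9.48%). Small changes were evenly split, and the large ones were mostly increases, with 66 genes higher and 18 lower by over 4-fold, and 16 higher and 1 lower by over 8-fold. The median log2 difference over all genes was 0.0016. Quantile normalization gives all arrays the same distribution of values, so the even split and this median are in part built in. After a further normalization, cyclic loess, 3381 genes were higher and 2791 lower. All 5 PN7d arrays lay above all 5 E16d arrays for 2408 genes (25.3%) and below them for 2363 (24.8%). The PN1d mean lay between those of PN7d and E16d for 906 of the 1035 genes that rose by over 1.5-fold and for 841 of the 904 that fell. By PN1d the median gene of the first group had covered 52.6% of the distance and that of the second 51.8%. In bulk tissue, fewer cells of a type and less RNA per cell cannot be told apart.

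Among the largest decreases were genes outside the lists. Reln, the secreted glycoprotein reelin, measured 7.15, 7.24, 7.25, 7.40 and 7.22 at PN7d, against 9.46, 9.61, 9.32, 9.62 and 9.40 at E16d (-2.23, SE 0.095), with a PN1d mean of 9.33. Capn6, of the calpain family, was at 7.98 to 8.15 at PN7d and 10.31 to 10.54 at E16d, and 2610318N02Rik was at 6.63 to 6.95 at PN7d and 9.07 to 9.29 at E16d, while its dimmer probe gave -0.67. Thumpd1, an RNA-binding protein, was uneven, with 6.06, 6.18, 6.04, 8.27 and 8.09 at PN7d and 8.64 to 9.39 at E16d.

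**Figure D1:**
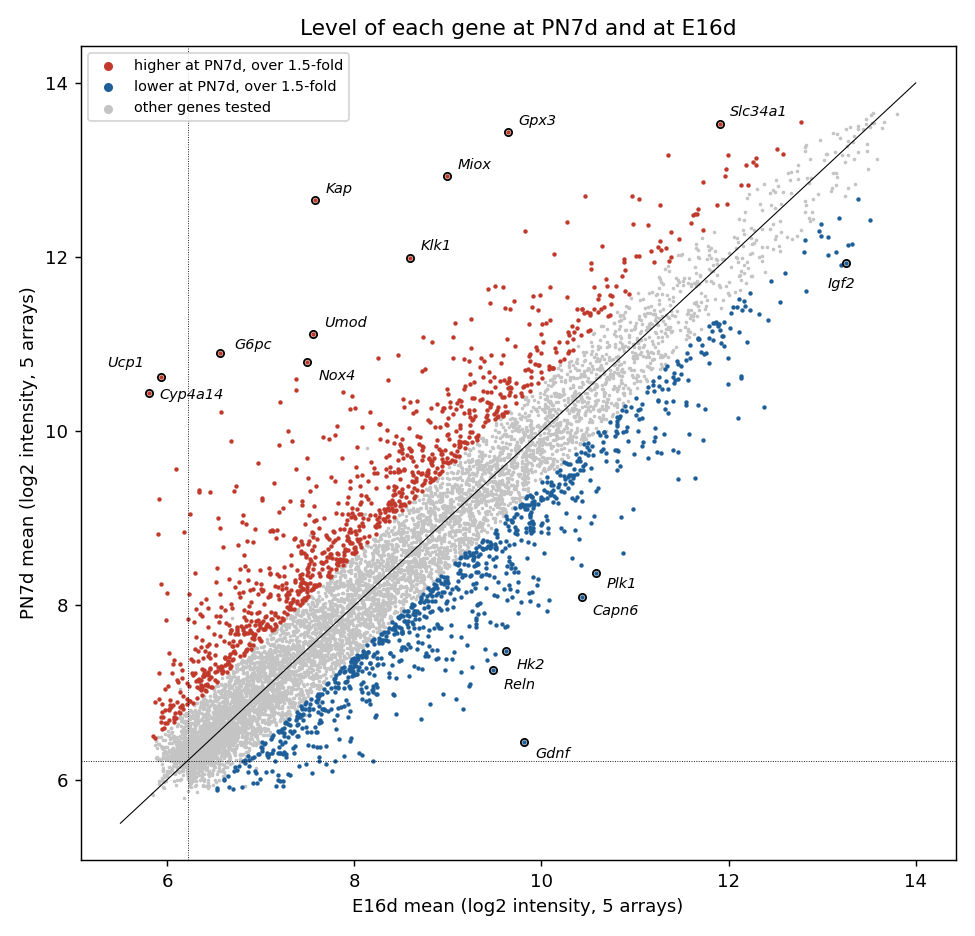
Mean log2 intensity of each of the 9531 genes at PN7d (vertical axis) against E16d (horizontal axis), 5 arrays each. Red and blue points are the 1035 genes higher and the 904 lower at PN7d by over 1.5-fold with an adjusted p under 0.05, the solid line marks equal levels, and the dotted lines mark 6.22. Kap, Miox and Gpx3 stand far above the line and Gdnf farthest below it.

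Of all genes tested, 32.3% were higher and 32.2% lower at PN7d. Of 245 nephron genes tested, 164 were higher (66.9%) and 46 lower (18.8%), with a median log2 difference of 0.54. Of 87 stroma genes 38 were higher (43.7%) and 31 lower (35.6%, near the share of all genes), with a median of 0.07. Of 86 vessel genes 38 were higher and 15 lower, with a median of 0.13, and of 274 metabolism genes 154 were higher and 33 lower, with a median of 0.26. The 69 genes of mitosis and DNA replication that were tested were all lower, with a median of -1.12. All lists were chosen with earlier results of these data known.

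**Figure D2:**
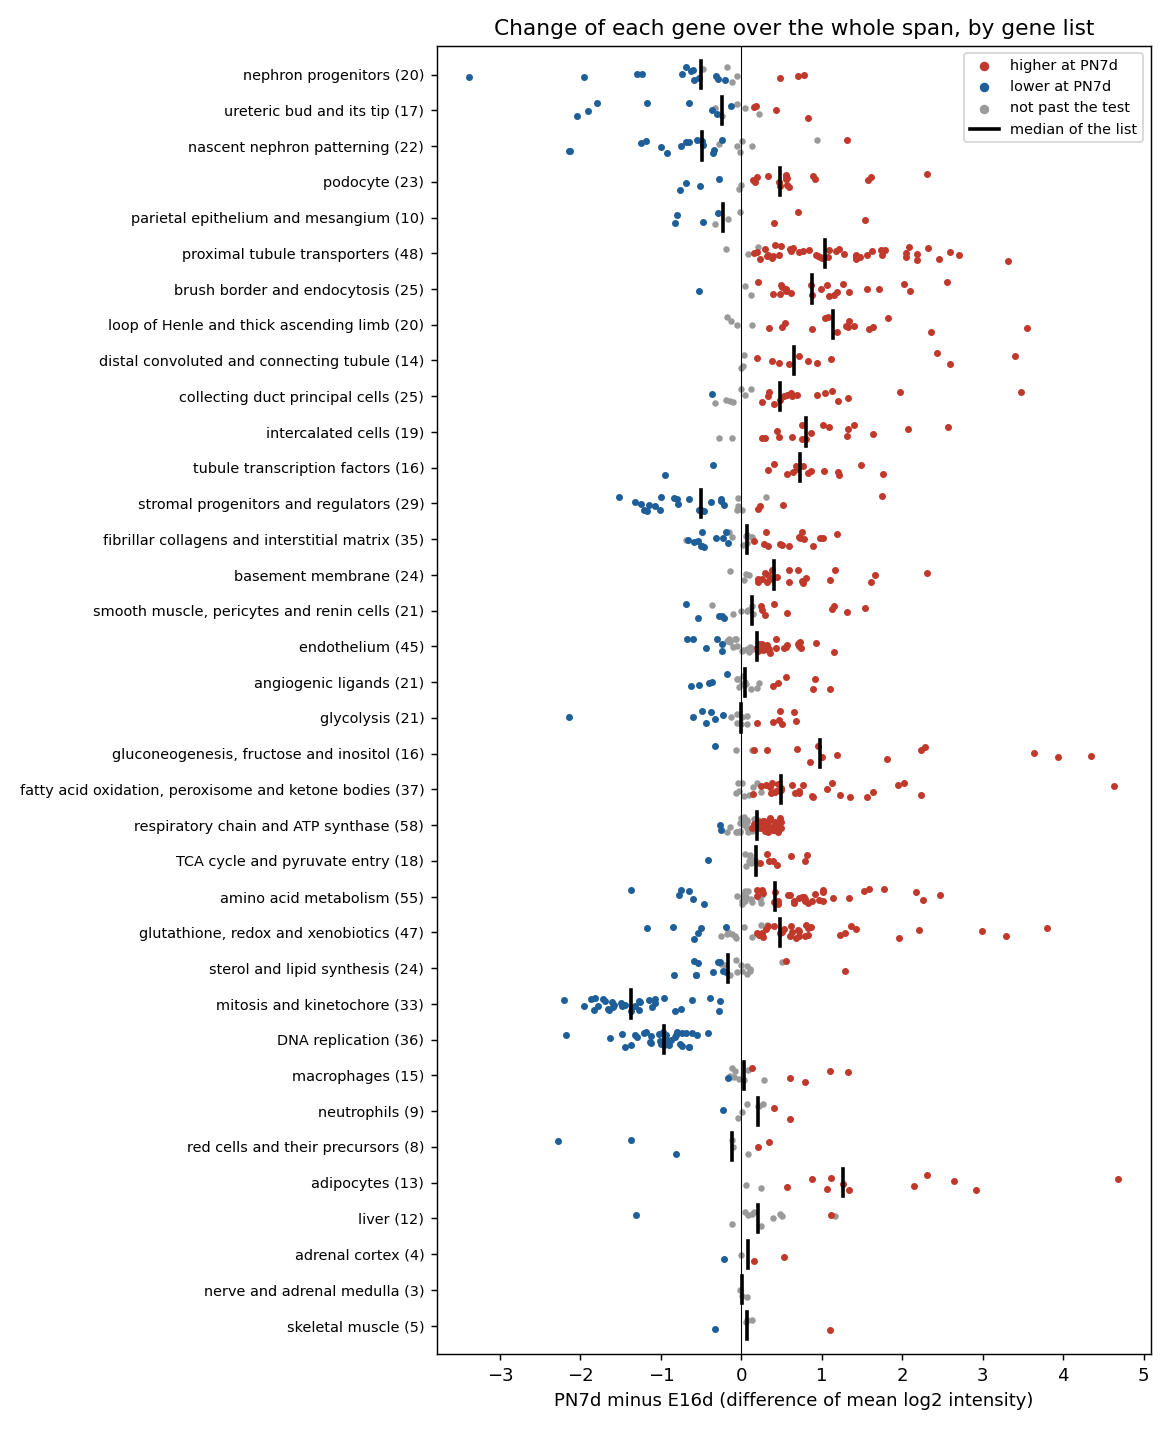
Difference of mean log2 intensity, PN7d minus E16d, for each tested member of each gene list, with the number of members in parentheses. Red points passed the test as higher at PN7d, blue as lower, grey did not pass, and the black bar is the median of the list. The lists of tubule segments lie to the right, those of mitosis and DNA replication wholly to the left, and the lists of collagens, vessels and glycolysis straddle 0.

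All 33 mitosis and kinetochore genes tested were lower at PN7d, beside 32.2% of all genes, with a median of -1.37 on the log2 scale. All 36 DNA replication genes tested were lower as well, with a median of -0.96. A further 10 mitosis genes and 4 replication genes with a probe were below the filter and were not tested. The lists' medians were -0.58 and -0.57 for PN1d against E16d and -0.80 and -0.40 for PN7d against PN1d. On each PN7d array the median mitosis gene lay between 1.14 (replicate 1) and 1.62 (replicate 4) below the E16d mean. The promoters of these genes are shown because the letters of the CHR element, TTTGAA, and of the CCAAT box recur in them. Through the CHR element mitotic genes are known to be silenced in resting cells. The sequences are RefSeq's on build GRCm38.p6, 170 bases ending 50 bases after the start of the transcript, 5′ to 3′ on the gene's strand, with CCAAT boxes, CHR letters and, for Mcm6, the letters TTTGGCGC of the E2F site in capitals, on either strand.
Plk1: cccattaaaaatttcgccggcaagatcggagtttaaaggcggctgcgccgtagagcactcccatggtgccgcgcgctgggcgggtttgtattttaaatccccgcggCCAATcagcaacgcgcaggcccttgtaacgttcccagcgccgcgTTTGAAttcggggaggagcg
Kif22: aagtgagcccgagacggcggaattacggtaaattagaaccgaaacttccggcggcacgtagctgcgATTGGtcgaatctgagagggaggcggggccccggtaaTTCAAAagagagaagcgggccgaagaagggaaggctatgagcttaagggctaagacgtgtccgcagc
Cdca3: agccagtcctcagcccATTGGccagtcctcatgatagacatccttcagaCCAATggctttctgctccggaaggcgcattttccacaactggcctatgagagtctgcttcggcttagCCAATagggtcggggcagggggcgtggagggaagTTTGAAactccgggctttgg
Cdk1: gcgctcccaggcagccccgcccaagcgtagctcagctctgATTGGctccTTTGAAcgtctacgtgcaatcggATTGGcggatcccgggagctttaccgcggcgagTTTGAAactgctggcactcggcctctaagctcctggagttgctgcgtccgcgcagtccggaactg
Mcm6: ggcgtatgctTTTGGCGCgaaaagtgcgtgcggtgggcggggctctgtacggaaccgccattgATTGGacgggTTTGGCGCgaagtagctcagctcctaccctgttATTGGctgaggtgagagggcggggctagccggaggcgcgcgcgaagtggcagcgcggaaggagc
Plk1 is at chr7:122159315-122159484 (plus strand), Kif22 at chr7:127042371-127042540 (minus), Cdca3 at chr6:124830056-124830225 (plus), Cdk1 at chr10:69352863-69353032 (minus) and Mcm6 at chr1:128359656-128359825 (minus). In Plk1 and Cdca3 the CHR letters begin at position 31 from the start, and copies begin at -15 in Cdk1 and at -17 in Kif22. Of the 27 mitosis genes with a promoter in the table, 22 (81.5%) hold TTTGAA within 250 bases before and 50 after the start, against 14.3% of the 7719 tested genes with a promoter and 17.9% of all 32851 promoters. CCAAT stands in 74.1% of them, against 42.8% of the tested genes. In the DNA replication list, 8 of 32 promoters hold TTTGGCGC or TTTCCCGC, against 3.20% of the tested genes. These are counts of letters and say nothing of whether a factor was bound.

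Plk1, the kinase that drives entry into mitosis, measured 8.64, 8.29, 8.28, 8.21 and 8.43 on the PN7d arrays, against 10.64, 10.64, 10.66, 10.45 and 10.50 on the E16d arrays. The groups were well apart, and the level was lower by 2.21 (SE 0.084, adjusted p = 2.8e-12), with a PN1d mean of 9.74. Aurkb, the kinase of the chromosomal passenger complex, measured 7.51, 7.36, 7.43, 7.25 and 7.38 at PN7d and 9.01, 8.90, 9.04, 8.85 and 9.10 at E16d (log2 difference -1.59, SE 0.062, adjusted p = 3.66e-12). Kif22, a kinesin that binds chromosomes, was at 7.92 to 8.27 at PN7d and 9.56 to 9.75 at E16d (-1.58, SE 0.076). Each of these genes fell on all 5 arrays by more than the spread within either age. Mcm6, a subunit of the helicase that opens replication origins, measured 10.11, 10.03, 9.68, 6.50 and 11.02 at PN7d, against 11.47, 11.65, 11.62, 11.68 and 11.79 at E16d. PN7d replicate 4 lay far below the others for this gene. The difference was -2.18 with that array and -1.43 without it, and a dimmer probe of that gene gave -1.12. Cdk1, the kinase of mitosis, fell by 1.95 (SE 0.099), Tpx2, a spindle assembly factor, by 1.82 (SE 0.073), and Cdca3, which promotes mitotic entry, by 1.78 (SE 0.13). Ranbp1, a regulator of the Ran cycle at the spindle, fell by 1.61 (SE 0.083). Mcm5, of the same helicase as Mcm6, fell by 1.63 (SE 0.067), and Pcna, the sliding clamp of DNA polymerase, measured 8.05 to 8.89 at PN7d and 9.27 to 10.16 at E16d (-1.29, SE 0.16). H3c11, a histone made with new DNA, was lower by 2.15 (SE 0.089).

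Of 20 nephron progenitor genes tested, 13 were lower and 3 higher (median -0.50). Of 17 genes of the ureteric bud and its tip 8 (47.1%) were lower, beside 32.2% of all genes, and 4 higher (median -0.24), and of 22 genes of nascent nephrons 15 were lower and 1 was higher (median -0.48). Without the filter on dim probes the medians of the progenitors and the bud were -0.23 and -0.058. Six2, the defining gene of the cap mesenchyme, has no probe here, and Eya1, Ret, Emx2 and Pax2 stayed below 6.22 on average at every age, so none of them was tested. Gdnf, which the cap secretes to make the bud branch, measured 6.45, 6.27, 6.48, 6.57 and 6.42 at PN7d, against 9.70, 9.89, 9.93, 9.78 and 9.80 at E16d. The PN7d arrays are barely above the median of all values, and the difference of -3.38 (SE 0.062, adjusted p = 9.08e-16) is the largest decrease of any gene. Its PN1d mean was 9.49, and the difference of PN7d from PN1d was -3.05. The receptor component Gfra1, through which Gdnf binds the bud, was at 7.17 to 7.31 at PN7d and 8.98 to 9.22 at E16d, with a PN1d mean of 8.88. Etv4, a transcription factor that Gdnf signalling turns on in the tip, was at 6.05 to 6.43 at PN7d, on either side of 6.22, and at 7.77 to 8.26 at E16d. Wnt11, another target at the tip, was at 6.04 to 6.22 at PN7d and 6.19 to 6.33 at E16d, close to the median of all values, and its call was lost without PN7d replicate 3 or E16d replicate 1.

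Cited1, a cofactor confined to uncommitted cap cells, lay below 6.22 on all 5 PN7d arrays (6.01 to 6.12) and at 7.12 to 7.55 at E16d, a fall of at least 2.1-fold. Uncx, a homeobox gene of the cap, measured 6.92 to 7.03 at PN7d, against 8.85 to 9.01 at E16d (-1.96, SE 0.057), and its PN1d mean of 8.58 was still near the E16d level. Tmem100 changed likewise, with 6.73 to 7.04 at PN7d, 8.11 to 8.23 at E16d and a PN1d mean of 8.30. Sox9, the transcription factor of bud tips and early nephrons, was lower by 2.04 (SE 0.19), and Sox11, of embryonic progenitors, was lower by 2.14 (SE 0.063). Wnt4, the signal that turns cap cells into epithelium, was at 6.51 to 6.85 at PN7d and 7.35 to 7.46 at E16d (-0.75, SE 0.060). Lhx1, needed for the first vesicles, was at 7.07 to 7.57 at PN7d and 8.05 to 8.37 at E16d (-0.93, SE 0.087). Targets of Notch signalling, which sets the proximal part of the S-shaped body, were among the falls: Hey1 averaged 7.93 ± 0.07 at PN7d and 10.06 ± 0.05 at E16d (SD, n = 5 each). Hes5 lay below 6.22 on every PN7d array, at least 2.02-fold under E16d. The Notch ligand Jag1 did not pass the test (-0.27, SE 0.14, adjusted p = 0.096), but without E16d replicate 1 its difference was -0.36 and passed (adjusted p = 0.0337).

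Some genes of these lists were higher at PN7d. Fgf9, a growth factor that keeps nephron progenitors, was at 7.25 to 7.55 at PN7d and 6.54 to 6.66 at E16d (0.78, SE 0.060). Bmp7, which also maintains them and is made by podocytes and tubules too, was higher by 0.48 (SE 0.10), and Itga8, an integrin of both cap and mesangium, by 0.70 (SE 0.20). Tfcp2l1, a transcription factor of the collecting duct, was at 12.30 to 12.76 at PN7d and 11.48 to 11.82 at E16d, and Krt8, a simple epithelial keratin, was higher by 0.43 (SE 0.095). The calls of the other higher bud genes, Grhl2 (0.19) and Wnt7b (0.16), were lost when single arrays were left out. Tmem178, of the nascent nephron list, was higher by 1.31 (SE 0.085).

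Of 23 podocyte genes tested, 17 were higher at PN7d, beside 32.3% of all genes, and 4 lower (median 0.48, or 0.14 without the filter on dim probes). Nphs1, the nephrin of the slit diaphragm, measured 7.32, 7.32, 7.62, 7.44 and 7.09 at PN7d and 6.79, 6.81, 6.98, 6.99 and 6.86 at E16d. The groups do not overlap, and the difference was 0.47 (SE 0.080, adjusted p = 6.29e-05). Podxl, the sialoprotein that keeps foot processes apart, was at 11.88 to 12.22 at PN7d and 11.36 to 11.66 at E16d (0.57, SE 0.082). The largest rises were those of the collagen chains that podocytes add to the mature glomerular basement membrane. Col4a4 measured 10.03, 10.12, 10.38, 10.16 and 10.60 at PN7d, against 7.90, 7.91, 8.05, 7.97 and 7.96 at E16d (2.30, SE 0.10, or 1.17 by a dimmer probe). Col4a3 was at 7.57 to 8.20 at PN7d and at 6.10 to 6.31 at E16d, where it lay on either side of 6.22, so that the difference of 1.61 (SE 0.096) is taken from a level at that limit. Their PN1d means of 9.06 for Col4a4 and 6.88 for Col4a3 lay between the 2 ages.

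The 4 lower podocyte genes fell by less. Foxc2, a forkhead factor of early podocytes, was at 9.06 to 9.63 at PN7d and 9.79 to 10.25 at E16d (-0.76, SE 0.11). Sulf1, which trims heparan sulfate, fell by 0.68 (SE 0.11), Cdkn1c, the inhibitor that takes podocytes out of the cell cycle, by 0.52 (SE 0.061), and Efnb1, an ephrin of the slit diaphragm, by 0.28 (SE 0.059). Of 10 genes of the parietal epithelium and mesangium 3 (30.0%) were higher and 4 (40.0%) lower, beside 32.3% and 32.2% of all genes. Agtr1a, the angiotensin receptor of mesangial, mural and tubule cells, measured 9.80 to 10.03 at PN7d and 8.29 to 8.42 at E16d (1.53, SE 0.057), with a PN1d mean of 9.45. Egr1, an immediate early gene, was lower by 0.82 (SE 0.10), and Sfrp2, an inhibitor of Wnt signals, by 0.80 (SE 0.094). Pax8, shared by parietal cells and early nephrons, fell by 0.48 (SE 0.069), while a dimmer probe gave -0.09.

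Proximal tubule transporters were the list of tubule genes with the highest share of increases. Of 48 transporter genes tested, 45 were higher at PN7d, beside 32.3% of all genes, and none was lower, with 34 past 1.5-fold and a median of 1.04 on the log2 scale. On the 5 PN7d arrays the median member lay 0.77 (replicate 4) to 1.18 (replicate 5) above the E16d mean. The medians of the steps were 0.88 for PN1d against E16d and 0.22 for PN7d against PN1d. Promoters of such a transporter pair and of a pair of proximal tubule enzymes are shown for the letters GTTAAT, a core of the site bound by the hepatocyte nuclear factors HNF1, whose genes have no probe here. Each is RefSeq's GRCm38.p6 sequence upstream of or across the start, 5′ to 3′ on the gene's strand, with GTTAAT on either strand in capitals.
Slc34a1: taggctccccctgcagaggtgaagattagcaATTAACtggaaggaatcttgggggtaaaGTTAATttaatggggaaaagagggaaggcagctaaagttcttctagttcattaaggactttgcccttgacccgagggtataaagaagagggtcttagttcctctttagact
Slc22a6: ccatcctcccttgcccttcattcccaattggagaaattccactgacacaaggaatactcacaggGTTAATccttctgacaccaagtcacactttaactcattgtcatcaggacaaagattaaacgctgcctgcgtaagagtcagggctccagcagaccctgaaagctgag
G6pc: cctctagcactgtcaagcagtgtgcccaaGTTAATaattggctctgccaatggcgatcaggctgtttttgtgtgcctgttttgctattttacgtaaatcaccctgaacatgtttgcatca
Miox: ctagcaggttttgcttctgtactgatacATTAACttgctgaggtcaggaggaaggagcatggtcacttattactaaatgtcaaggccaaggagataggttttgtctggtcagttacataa
Slc34a1 is at chr13:55399528-55399697, Slc22a6 at chr19:8617876-8618045, G6pc at chr11:101367466-101367585 and Miox at chr15:89334303-89334422, all on the plus strand. In Slc34a1 the letters begin at positions -89 and -61 from the start, in Slc22a6 at -56, in G6pc at -221 and in Miox at -142. They stand in 9 of 40 transporter promoters (22.5%) and in 4 of 14 of the gluconeogenesis, fructose and inositol list (28.6%), against 5.87% of the tested genes and 7.10% of all promoters. The 9 transporters include Slc5a10, Slc22a8, Slc7a7 and Slc3a1, and the 4 enzymes are G6pc, Pck1, Khk and Miox. A longer form of the HNF1 site stands in 0 of 40 and 0 of 14 of these promoters, and in 0.0648% of the tested genes. The letters of HNF4, another hepatocyte nuclear factor, stand in 1 of 40 and 0 of 14. The shorter HNF1 core is also frequent outside these lists, in 6 of 9 liver promoters, 3 of 14 of tubule transcription factors and 3 of 16 of the loop. It stands in 0 of 14 of the distal tubule list. TTTGAA, the letters looked for above, also stands in 30.0% of the transporter promoters.

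Slc34a1, the phosphate carrier of the brush border, was already bright before birth. It measured 13.60, 13.49, 13.49, 13.49 and 13.60 at PN7d, close to the highest value of the arrays, and 12.07, 11.90, 11.97, 11.96 and 11.61 at E16d (1.63, SE 0.079, adjusted p = 3.84e-11). Slc22a6, the organic anion transporter that takes drugs and urate from blood, measured 10.43, 10.41, 10.10, 9.83 and 10.51 at PN7d and 9.18, 8.95, 9.16, 9.16 and 8.96 at E16d (1.17, SE 0.12). Its PN1d mean was above both, 1.91 over E16d. Slc5a10, a sodium-coupled sugar transporter, was at 9.56 to 10.29 at PN7d and 7.12 to 7.42 at E16d (2.71, SE 0.18), with 9.56 at PN1d. Slc13a2, the citrate carrier, was at 9.09 to 9.63 at PN7d and 6.61 to 6.78 at E16d (2.60, SE 0.099), and at 7.86 at PN1d. These transporters differed in time, the sugar transporter being near its PN7d level at PN1d and the citrate carrier less than midway. Slc5a2, the glucose transporter of the early proximal tubule, measured 9.65, 10.17, 9.96, 6.42 and 9.93 at PN7d and 5.83 to 5.97 at E16d. Replicate 4 stood far below the other PN7d arrays. The rise was at least 8.04-fold, the fitted difference was 3.32, and a second probe gave 1.42, which is also the probe that represents the gene when PN7d replicate 2 is left out (1.40).

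Brush border and endocytosis genes followed, with 22 of 25 higher, 1 lower and a median of 0.88. Dpep1, a membrane dipeptidase, was at 9.58 to 10.02 at PN7d and 7.19 to 7.63 at E16d (2.55, SE 0.12, adjusted p = 1.75e-11). Alpl, the alkaline phosphatase, was at 8.63 to 9.19 at PN7d and 6.59 to 6.96 at E16d, and Cdhr5, a cadherin that links microvilli, at 11.31 to 11.76 and 9.27 to 9.55 at the same ages. Mep1a, the meprin metalloprotease, was higher by 1.56 (SE 0.16), and Anpep, aminopeptidase N, by 1.15 (SE 0.19), with a PN1d mean of 10.30 above the 9.53 of PN7d. Vil1, the actin bundler of microvilli, moved least of these, at 8.14 to 8.75 at PN7d and 7.95 to 8.15 at E16d, where the groups touch (0.40, SE 0.094). Rab11a, a recycling endosome protein of all cells, was the lower member (-0.52, SE 0.068). Megalin and cubilin, the receptors Lrp2 and Cubn, have no probe here. Kap, an androgen-regulated protein of the proximal tubule, had the largest increase of any gene, with 12.45, 12.71, 12.68, 12.49 and 12.91 at PN7d and 7.03, 7.48, 7.59, 8.25 and 7.53 at E16d. Its PN1d mean was 12.20, so that 4.62 of the 5.08 lay before PN1d. Apom, a carrier of lysosphingolipids secreted by the proximal tubule, was uneven at PN7d, at 9.53, 11.42, 10.45, 11.35 and 11.60, against 8.43 to 8.52 at E16d (2.40, SE 0.32).

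In the loop of Henle and thick ascending limb 16 of 20 genes were higher and none lower (median 1.13). Umod, the uromodulin that the thick limb sheds into urine, measured 11.12, 11.28, 11.17, 10.58 and 11.42 at PN7d and 7.52, 7.57, 7.76, 7.57 and 7.39 at E16d. Every PN7d array stood far above the highest E16d array, and the PN1d mean was between them at 9.45. Slc12a1, the furosemide-sensitive salt carrier, was at 12.13 to 12.60 at PN7d and 10.68 to 11.14 at E16d (1.40, SE 0.10). Kcnj1, the potassium channel that recycles potassium for it, was at 9.81 to 10.37 at PN7d and 8.05 to 8.62 at E16d (1.82, SE 0.15). Its PN1d mean did not differ from E16d by the test (0.23, adjusted p = 0.23), unlike that of Slc12a1 (11.77). Kcnj16, a channel subunit of the basolateral side, was higher by 2.35 (SE 0.11).

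Of 14 genes of the distal convoluted and connecting tubule 11 were higher and none lower (median 0.66). Slc12a3, the thiazide-sensitive salt carrier, measured 10.66, 10.51, 11.30, 11.10 and 10.62 at PN7d, against 8.43, 8.31, 8.02, 8.36 and 8.13 at E16d (2.59, SE 0.13, adjusted p = 6.76e-11), with 9.69 at PN1d. Pvalb, the calcium buffer of the same cells, was at 9.78 to 10.82 at PN7d and 7.82 to 8.08 at E16d. Klk1, the kallikrein of the connecting tubule, was at 11.24 to 12.46 at PN7d and 8.41 to 8.72 at E16d (3.40, SE 0.17).

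In the collecting duct, 17 of 25 principal cell genes were higher and 1 lower (median 0.49), and 17 of 19 intercalated cell genes were higher and none lower (median 0.81). Aqp2, the vasopressin-regulated water channel, measured 9.52, 10.15, 9.83, 9.20 and 9.65 at PN7d and 8.64, 8.57, 8.35, 8.38 and 8.39 at E16d (1.2, SE 0.16), while its PN1d mean of 10.53 was higher than both. Aqp4, a water channel of the basolateral side, had reached 8.84 at PN1d, and was at 8.75 to 9.26 at PN7d and 7.36 to 7.91 at E16d. Scnn1b, a subunit of the epithelial sodium channel, had another course, at 9.74 to 10.29 at PN7d, 8.78 to 9.06 at E16d and 9.12 at PN1d. The water channels had thus risen by PN1d and most of the rise of the sodium channel subunit came after it. Slc14a2, which carries urea in the inner medulla, was at 9.24 to 10.13 at PN7d and below 6.22 on every E16d array, a rise of at least 10.2-fold, but a second probe gave a difference of 0.21. Hoxb7, a homeobox gene of the bud and its derivatives, was the lower member (-0.37, SE 0.0625).

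Slc26a4, pendrin of the bicarbonate-secreting intercalated cell, measured 8.75, 8.80, 8.66, 8.42 and 8.71 at PN7d, against 6.63, 6.46, 6.64, 6.66 and 6.58 at E16d (2.08, SE 0.069, adjusted p = 8.93e-13). Atp6v1b1, the proton pump subunit of these cells, was at 7.92 to 8.40 at PN7d and 6.72 to 7.12 at E16d (1.31, SE 0.090), and only 0.29 of this was present at PN1d. Car15, a membrane carbonic anhydrase, was higher by 2.57 (SE 0.10). Slc4a1, the anion exchanger shared by acid-secreting cells and red cells, did not differ over the span, at 9.07 to 9.58 at PN7d and 9.04 to 9.78 at E16d, with a PN1d mean of 8.19 below both.

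**Figure D3:**
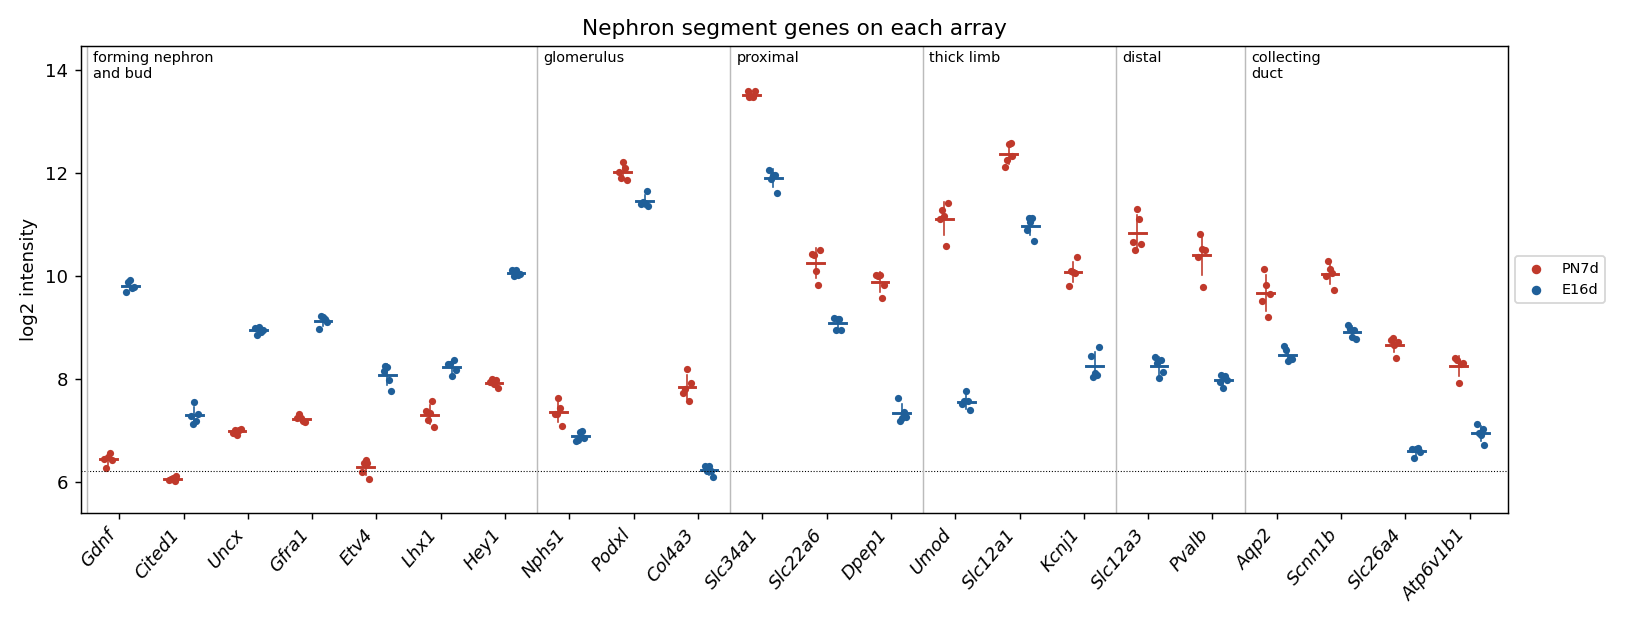
Log2 intensity of 22 genes on each of the 5 PN7d arrays (red, left of each pair) and the 5 E16d arrays (blue, right), with the mean as a horizontal bar and the SD as a vertical line. The dotted line is 6.22, the median of all values. The genes of the forming nephron and bud are lower at PN7d and those of the glomerulus, tubules and collecting duct higher, and in none of the 22 do the arrays of the 2 ages overlap.

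Transcription factors and nuclear receptors of the tubule were higher in 14 of 16 cases, with 2 lower and a median of 0.73. Hnf4a, the master factor of the proximal tubule, measured 11.42, 11.30, 11.65, 11.37 and 11.28 at PN7d and 10.58, 10.64, 10.63, 10.64 and 10.67 at E16d (0.77, SE 0.072, adjusted p = 9.46e-08). Nr1h4, the bile acid receptor FXR, averaged 9.20 ± 0.12 at PN7d and 7.44 ± 0.09 at E16d (1.76, SE 0.13), below its PN1d mean of 9.80. Klf9, a factor induced by glucocorticoid and thyroid hormone, was higher by 1.49 (SE 0.10), of which 1.14 was present at PN1d. Vdr, the vitamin D receptor, was higher by 1.22 (SE 0.053), most of it after PN1d, whose mean was 7.90. The lower members were Foxa1 (-0.36, SE 0.093) and Cebpd (-0.95, SE 0.076), and a dimmer probe of Cebpd gave -0.07.

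Of 29 regulators of the stroma 20 were lower at PN7d, beside 32.2% of all genes, and 4 higher, with a median of -0.50, or -0.23 without the filter on dim probes. Foxd1, the defining factor of the cortical stroma, measured 7.58, 7.59, 7.57, 7.71 and 7.77 at PN7d and 8.54, 8.60, 8.86, 8.78 and 9.17 at E16d (-1.14, SE 0.096, adjusted p = 2.51e-08). The groups do not overlap. Meis1, a homeobox gene of all stroma, was at 9.18 to 9.56 at PN7d and 10.03 to 10.24 at E16d (-0.79, SE 0.073). Aldh1a2, which makes the retinoic acid by which the stroma signals to the bud, was at 6.76 to 7.02 at PN7d and 7.87 to 8.05 at E16d (-1.07, SE 0.068). Crabp2, a carrier of retinoic acid, lay at or below 6.22 on every PN7d array, at least 2.78-fold under E16d. The fetal growth factor Igf2 was at 11.68 to 12.32 at PN7d and 13.20 to 13.34 at E16d (-1.32, SE 0.095), and its PN1d mean of 13.33 had not moved. Dlk1, another imprinted fetal gene, fell by 1.25 (SE 0.17), of which 0.64 was present at PN1d. Of the higher members Sfrp1, a secreted Wnt inhibitor, stood apart, at 11.26 to 11.52 at PN7d and 9.58 to 9.79 at E16d (1.74, SE 0.077). Smoc2, a matricellular protein, was higher by 0.51 (SE 0.091) and Tnc, tenascin C, by 0.23 (SE 0.059).

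The list of fibrillar collagens and interstitial matrix did not move in 1 direction. Of 35 genes of interstitial matrix 15 (42.9%) were higher, 11 (31.4%) lower and 9 not past the test, with a median of 0.07. The shares of all genes were 32.3% and 32.2%. Col1a1 measured 9.60, 9.48, 9.83, 9.65 and 9.57 at PN7d and 9.59, 10.08, 9.70, 9.78 and 9.56 at E16d (-0.12, SE 0.12, adjusted p = 0.4). Col3a1 (0.02, SE 0.17) and fibronectin, Fn1 (-0.15, SE 0.14), did not pass the test either. Mgp, which keeps matrix free of calcium, was at 11.08 to 11.39 at PN7d and 9.95 to 10.21 at E16d (1.2, SE 0.079), Eln, elastin, was higher by 0.97 (SE 0.14), and Loxl1, the oxidase that crosslinks elastin, by 1.02 (SE 0.080). Lox, the related oxidase that crosslinks collagen, was lower, at 9.92 to 10.13 at PN7d and 10.55 to 10.73 at E16d (-0.67, SE 0.068). Its fall came after PN1d, where the mean was 10.90. Fbn2, the fetal fibrillin, fell by 0.59 (SE 0.091), Mfap2, a microfibril protein, by 0.54 (SE 0.054), Col5a1, which nucleates collagen fibrils, by 0.46 (SE 0.080), and Loxl2 by 0.49 (SE 0.062). Serpinh1, the collagen chaperone, fell by 0.49 (SE 0.058) and P4ha1, a prolyl hydroxylase, by 0.50 (SE 0.067).

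Basement membrane genes rose instead, 20 of 24 being higher and none lower (median 0.41). Col4a1, the collagen chain of every basement membrane, was at 12.90 to 13.22 at PN7d and 12.19 to 12.38 at E16d (0.76, SE 0.069, adjusted p = 5.98e-08). Tinag, of tubular basement membranes, was at 10.40 to 10.95 at PN7d and 9.09 to 9.25 at E16d (1.66, SE 0.086). Lama1, the laminin chain of early tubules, stayed below the filter.

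Changes of vessel genes were smaller and mixed. Of 45 endothelial genes 23 were higher and 6 lower, beside 32.3% and 32.2% of all genes, with a median of 0.20, or 0.10 without the filter on dim probes. Pecam1, the adhesion protein of all endothelium, was at 8.41 to 8.80 at PN7d and 7.84 to 8.05 at E16d (0.56, SE 0.085, adjusted p = 2.16e-05). Cdh5, the endothelial cadherin, differed less, at 8.70 to 9.12 at PN7d and 8.64 to 8.81 at E16d. Its difference of 0.21 passed the test (adjusted p = 0.0179), and without PN7d replicate 2 it was 0.17 and did not (adjusted p = 0.0522). Kdr, the main receptor of Vegfa, was below the filter. Ly6c1, of capillary endothelium, was higher by 1.15 (SE 0.11), and Ptprb, the phosphatase that restrains the receptor Tek, by 0.92 (SE 0.099). Egfl7, a secreted endothelial protein, was higher by 0.74 (SE 0.13), and by 0.69 and -0.03 with its other probes. The falls were those of Cav1, caveolin (-0.68, SE 0.15), Lyve1, the hyaluronan receptor of lymphatics and some macrophages (-0.60, SE 0.16), and Ramp2, a partner of the adrenomedullin receptor (-0.43, SE 0.057), and 3 smaller ones. Cav1 was uneven at PN7d, at 10.89, 9.71, 10.16, 10.32 and 10.08, against 10.78 to 11.04 at E16d, so that the groups overlap.

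Among 21 genes of smooth muscle, pericytes and renin cells 9 (42.9%) were higher and 5 (23.8%) lower (median 0.13). The shares of all genes were 32.3% and 32.2%. Acta2, smooth muscle actin, was at 12.80 to 13.13 at PN7d and 12.59 to 12.93 at E16d, a difference of 0.25 (SE 0.082) that its other probes gave as -0.06 and 0.51 and that missed the threshold when its probes were averaged. Pdgfrb, the receptor of mural cells, was higher by 0.40 (SE 0.089), and Aoc3, the amine oxidase of smooth muscle and fat, by 1.31 (SE 0.13). Heyl, a Notch target of mural cells, was lower by 0.69 (SE 0.070) and Tpm2, a tropomyosin, by 0.54 (SE 0.084), or by 0.05 with its dimmer probe. Renin, Ren1, has no probe here.

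Of 21 angiogenic ligands 6 were higher and 5 lower at PN7d, a smaller share each way than of all genes. Vegfa, which podocytes and tubules make for endothelium, measured 11.06, 11.12, 11.56, 11.62 and 11.05 at PN7d, against 10.44, 10.35, 10.21, 10.47 and 10.48 at E16d (0.89, SE 0.11, adjusted p = 3.01e-06). Most of this came after PN1d, whose mean was 10.60. Pdgfb, with which endothelium recruits mural cells, was at 8.69 to 8.98 at PN7d and 7.84 to 8.07 at E16d (0.92, SE 0.089), and Pdgfa was higher by 1.1 (SE 0.081). Pdgfc, of the cap and stroma, fell by 0.40 (SE 0.080). The guidance signals Sema3f and Sema3a fell by 0.63 (SE 0.098) and 0.52 (SE 0.076). The angiopoietins did not pass the test, Angpt1 at -0.05 (SE 0.049) and Angpt2 at 0.02 (SE 0.14).

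**Figure D4:**
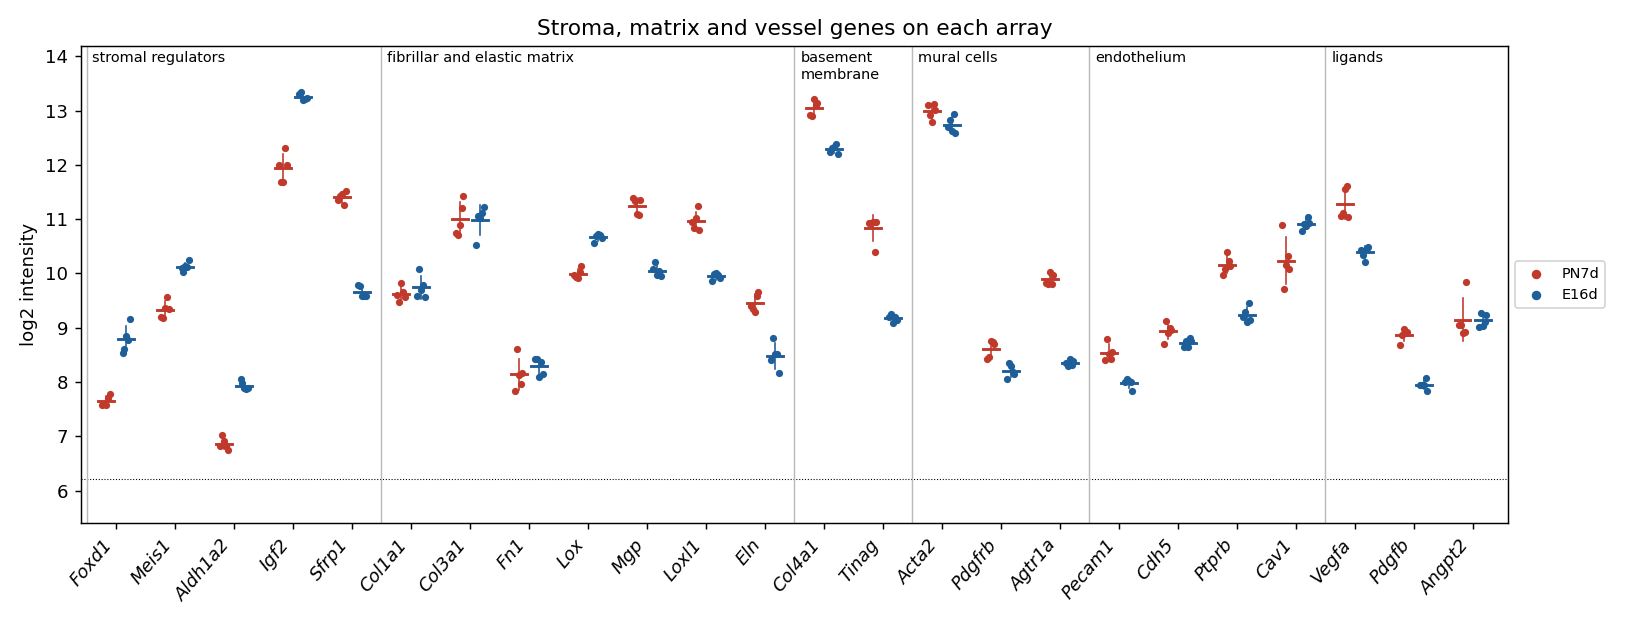
Log2 intensity of 24 genes of stroma, matrix and vessels on each of the 5 PN7d arrays (red, left of each pair) and the 5 E16d arrays (blue, right), with the mean as a horizontal bar and the SD as a vertical line. The dotted line is 6.22. Foxd1, Aldh1a2, Igf2 and Lox are lower at PN7d, Sfrp1, Mgp, Loxl1, Col4a1 and Vegfa are higher, and Col1a1, Col3a1, Fn1 and Angpt2 overlap.

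Of the metabolism lists, that of gluconeogenesis, fructose and inositol had the highest median. Of its 16 genes 13 were higher and 1 lower, with a median of 0.98. They are not all enzymes that make glucose. The carriers Slc37a4, Slc2a5 and Slc2a2 are also in the proximal transporter list, and Crb3 is no enzyme of these routes. G6pc, which releases glucose from its phosphate, measured 11.02, 10.88, 11.06, 10.01 and 11.55 at PN7d and 6.76, 6.48, 6.38, 6.51 and 6.68 at E16d. The difference of 4.34 (SE 0.20, adjusted p = 2.12e-11) was 20.3-fold, and the PN1d mean of 10.74 was close to that of PN7d. Pck1, which starts the route from oxaloacetate, was at 9.61 to 10.81 at PN7d and 6.35 to 6.84 at E16d (3.64, SE 0.22), with 9.12 at PN1d. Fbp1, the bisphosphatase of the same route, was at 9.48 to 10.29 at PN7d and 7.55 to 7.78 at E16d (2.28, SE 0.12). Miox, which opens inositol, was at 12.77 to 13.05 at PN7d and 8.62 to 9.25 at E16d (3.94, SE 0.17), and at 11.42 at PN1d. G6pc, Pck1 and Fbp1 are also made by liver. Of 12 liver genes 1 was higher and 1 lower, and their summed intensity was 1713 to 2251 at PN7d and 1666 to 2199 at E16d. At PN1d that sum was 2157 to 15530. Alb was below the filter at every age, PN1d included, so its probe does not report on liver RNA here. The part of liver RNA in these rises, and in the PN1d means, was not tested. Ippk, an inositol phosphate kinase, was the lower member (-0.33, SE 0.049).

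Glycolysis as a list did not move, with 7 of 21 genes (33.3%) higher, 7 (33.3%) lower and a median of -0.0015. These shares are near the 32.3% and 32.2% of all genes. Single enzymes moved in both directions. Hk2, the hexokinase of growing cells and muscle, was at 7.14 to 7.69 at PN7d and 9.34 to 9.83 at E16d (-2.15, SE 0.14, adjusted p = 8.99e-10). Hk1, the common hexokinase, did not pass the test (0.07, SE 0.074). Pkm, the pyruvate kinase of non-liver tissue, was at 11.08 to 11.33 at PN7d and 11.78 to 11.90 at E16d (-0.60, SE 0.075), and the glucose carrier Slc2a1 was lower by 0.48 (SE 0.11). Both were still at the embryonic level at PN1d, with means of 11.83 and 9.87. Higher were Pdk1, the kinase that holds back pyruvate dehydrogenase (0.68, SE 0.084), Pfkfb2, which tunes phosphofructokinase (0.66, SE 0.12), and Aldoc, an aldolase (0.50, SE 0.0625). Pfkp, a phosphofructokinase, had a difference of -0.00 over the span and a PN1d mean 0.55 above both ends.

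Enzymes of fatty acid oxidation, peroxisomes and ketone bodies were higher in 28 of 37 cases (75.7%), beside 32.3% of all genes, and lower in none (median 0.49). Cyp4a14, an omega-hydroxylase of fatty acids and a target of the receptor PPAR-alpha, measured 10.08, 10.58, 10.96, 10.04 and 10.53 at PN7d and was below 6.22 on every E16d array (5.77 to 5.84), at least 18.6-fold. At PN1d its mean was 6.57. Cyp4a10, of the same family, averaged 12.71 ± 0.18 at PN7d and 10.47 ± 0.18 at E16d (SD, n = 5 each). Ehhadh, a bifunctional enzyme of the peroxisome, averaged 8.70 ± 0.36 at PN7d and 6.75 ± 0.08 at E16d (1.94, SE 0.13), and the thiolase Acaa1b was higher by 2.03 (SE 0.089). The mitochondrial dehydrogenase Acadm was uncertain, with 0.31 by its brighter probe and -0.55 by its dimmer one. Brown fat also oxidizes fatty acids, and its markers rose at PN7d as given further on.

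The respiratory chain rose by little, with 32 of 58 subunits (55.2%) higher, beside 32.3% of all genes, and 2 lower. None was past 1.5-fold, and the median was 0.20. On the PN7d arrays the median subunit lay 0.06 (replicate 4) to 0.30 (replicate 1) above the E16d mean. Uqcrc1, of complex III, averaged 11.84 ± 0.14 at PN7d and 11.36 ± 0.08 at E16d (0.48, SE 0.067, adjusted p = 9.46e-06), and Ndufs7 and Ndufa6, of complex I, were higher by 0.49 each (SE 0.076 and 0.074). The lower members were the ATP synthase subunits Atp5j (-0.27, SE 0.089) and Atp5e (-0.25, SE 0.093). The call of Atp5e was lost without any 1 of PN7d replicates 1, 3 and 4 and E16d replicates 2 and 5 (-0.23 to -0.20, adjusted p = 0.0575 to 0.0752). In the TCA cycle 8 of 18 genes (44.4%) were higher, beside 32.3% of all genes, and 1 was lower (median 0.19). The rises were led by Aco1, the cytosolic aconitase (0.81, SE 0.075), and Ogdh, the 2-oxoglutarate dehydrogenase (0.80, SE 0.10). Sucla2, a subunit of succinyl-CoA synthetase, was the lower member (-0.41, SE 0.083). Citrate synthase, Cs, did not pass the test (0.13, SE 0.059, adjusted p = 0.0604). It passed without PN7d replicate 4 (0.15, adjusted p = 0.0397), without E16d replicate 1 (0.15, adjusted p = 0.0426) and without E16d replicate 2 (0.16, adjusted p = 0.0411).

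In amino acid metabolism 33 of the 55 genes tested (60.0%) were higher, beside 32.3% of all genes, and 6 were lower. The median was 0.42, or 0.25 without the filter on dim probes. Ass1, which makes argininosuccinate on the way to arginine, measured 12.31, 12.46, 12.46, 11.89 and 12.36 at PN7d and 10.08, 9.96, 9.67, 9.74 and 9.69 at E16d (2.47, SE 0.10, adjusted p = 7.19e-12). Gatm, the first enzyme of creatine synthesis, was at 7.39 to 8.43 at PN7d and 6.11 to 6.42 at E16d, Hgd, of tyrosine breakdown, at 9.08 to 9.74 and 6.96 to 7.35 at the same ages, and Prodh2, of hydroxyproline breakdown, was higher by 2.17 (SE 0.10). Psat1, of serine synthesis, was at 8.70 to 9.05 at PN7d and 10.19 to 10.30 at E16d (-1.38, SE 0.098, or -0.55 by a dimmer probe). Phgdh, the first step to serine, was at 7.87 to 8.34 at PN7d and 8.75 to 9.09 at E16d (-0.75, SE 0.11). Shmt2, which passes the carbon of serine to folate in mitochondria, fell by 0.65 (SE 0.084), Asns, the asparagine synthetase, by 0.78 (SE 0.080), and Gldc, of glycine cleavage, by 0.61 (SE 0.065). The sixth, Bckdhb, lost its call without any of 7 single arrays.

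Of 47 genes of glutathione, redox and xenobiotics 31 (66.0%) were higher, beside 32.3% of all genes, and 6 were lower. The median was 0.47, or 0.30 without the filter on dim probes. Gpx3, the glutathione peroxidase that the kidney secretes into plasma, measured 13.49, 13.48, 13.43, 13.30 and 13.51 at PN7d and 9.68, 9.78, 9.65, 9.74 and 9.34 at E16d (3.80, SE 0.087, adjusted p = 1.64e-14), a 13.9-fold rise of which 3.45 was present at PN1d. Nox4, the oxidase that makes hydrogen peroxide in the tubule, was at 10.53 to 11.06 at PN7d and 7.39 to 7.58 at E16d (3.30, SE 0.10), with 8.83 at PN1d. Most of the rise of the peroxidase was thus present at PN1d, and most of that of the oxidase came later. Ugt3a2, a sugar transferase for foreign compounds, was higher by 2.99 (SE 0.17). Gstp1, the glutathione transferase of fetal and dividing cells, was lower by 0.85 (SE 0.21), Txnrd1, thioredoxin reductase, by 0.59 (SE 0.15), and Prdx4, a peroxiredoxin of the secretory path, by 0.50 (SE 0.062). Mgst1, a membrane transferase, measured 10.36, 6.23, 9.19, 9.26 and 9.42 at PN7d and 9.95 to 10.18 at E16d. Its difference of -1.17 (adjusted p = 0.0481) was -0.51 without PN7d replicate 2, and the call was lost without any of 7 other single arrays.

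Of 24 genes of sterol and fatty acid synthesis 10 (41.7%) were lower, beside 32.2% of all genes, 2 were higher and 12 did not pass the test. The median was -0.16, and -0.078 without PN7d replicate 2. The desaturase Scd2 was at 11.98 to 12.33 at PN7d and 12.89 to 13.29 at E16d (-0.83, SE 0.10). Fasn, the fatty acid synthase, fell by 0.58 (SE 0.091), and Elovl5, an elongase, by 0.57 (SE 0.076). Acss2, which makes acetyl-CoA from acetate, was higher (1.29, SE 0.082), and Idi1, of the sterol path, was at least 1.29-fold higher.

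**Figure D5:**
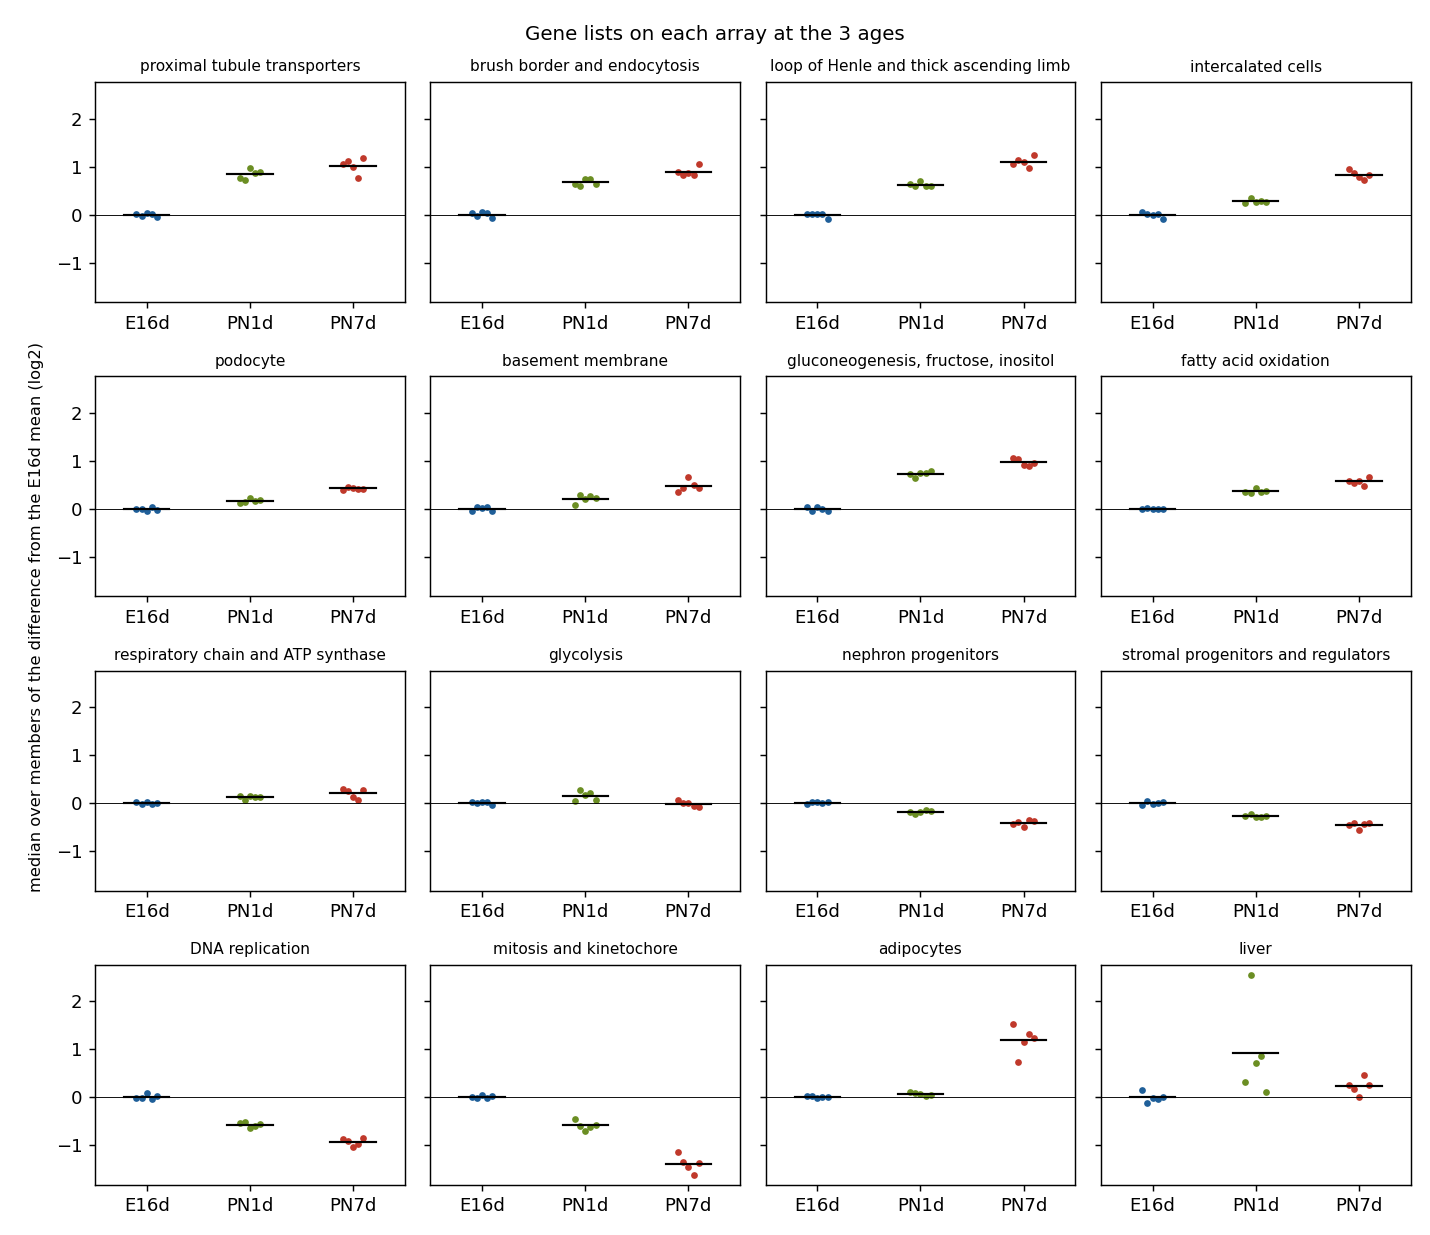
For 16 gene lists, the median over tested members of the difference from the E16d mean (log2 intensity), on each of the 5 arrays of E16d, PN1d and PN7d. Bars are the mean of the 5 arrays, and the E16d points scatter around 0 by construction. The proximal tubule transporters have covered most of the distance by PN1d, the mitosis list falls further after it, glycolysis ends near where it began, and the adipocyte median is near 0 at PN1d and high at PN7d.

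Markers of other tissues and cells were examined because kidneys can carry them along. Of 13 adipocyte genes 11 were higher at PN7d and none lower (median 1.27), and the summed intensity of the list was 4168 to 13596 at PN7d and 2074 to 2266 at E16d. Ucp1, the uncoupling protein of brown fat, measured 12.17, 8.07, 10.07, 11.71 and 11.07 at PN7d and was at 5.90 to 5.97 at E16d and 5.99 at PN1d. Cox8b, a respiratory subunit of brown fat and muscle, was likewise highest in replicate 1 and lowest in replicate 2, at 10.18, 7.07, 8.59, 9.11 and 9.17 in the PN7d kidneys and at most 5.96 at E16d. The fat signal was highest in PN7d replicate 1 and lowest in replicate 2, and so was Cav1. The part of fat in the level of Cav1 and in the rises reported for lipid enzymes was not tested. Of 8 red cell genes 2 were higher, by at most 0.35, and 3 (37.5%) lower, with a median of -0.11. The shares of all genes were 32.3% and 32.2%, so the list as a whole did not move in 1 direction. Alas2, of haem synthesis in red cell precursors, was at 7.57 to 8.69 at PN7d and 9.36 to 10.24 at E16d (-1.37, SE 0.23), and Hba-x, an embryonic globin, lay below 6.22 on every PN7d array, at least 1.4-fold under E16d. Of 15 macrophage genes 5 (33.3%) were higher, beside 32.3% of all genes, and 1 was lower, with a median of 0.03. Cd74, the invariant chain of class II antigen presentation, was at 7.58 to 7.98 at PN7d and 6.32 to 6.52 at E16d (1.33, SE 0.082). H2-Ab1, a class II chain, was higher by 1.11 (SE 0.11), while its dimmer probe gave -0.02, and H2-Eb1 was at least 1.42-fold higher. The genes of the adrenal cortex Cyp11a1 and Cyp21a1 and those of the adrenal medulla Th and Dbh were below the filter. Of 4 adrenal cortex genes that were tested, 2 were higher and 1 lower, with a median of 0.08. Their summed intensity was 371 to 442 at PN7d and 353 to 373 at E16d. Of 3 genes of nerve and adrenal medulla that were tested, none passed the test. The part of adrenal RNA in the PN7d levels was not tested. Kdm5d, the only Y-linked gene tested, was at 7.44 and 7.64 on 2 PN7d arrays and at 7.78 on 1 E16d array, and at 5.75 to 5.83 on the other 7, although the methods give the animals as male.

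A comparison of the ends of the span misses genes that moved at PN1d and returned. For 201 genes (2.11%) the level was higher at PN1d than at both other ages with no net difference between PN7d and E16d, and for 202 (2.12%) it was lower. Hmox1, the haem oxygenase, averaged 9.09 ± 0.18 at PN7d, 9.21 ± 0.15 at E16d and 11.51 at PN1d. Nat8, an acetyltransferase of the proximal tubule, had PN7d and E16d means of 7.51 and 7.92 against 10.27 at PN1d, although its net difference of -0.41 became -0.60 and passed the test without PN7d replicate 3. Ttr, a carrier made by liver, was at 10.08 at PN1d. It is 1 of the 12 liver genes, whose summed intensity was 2157 to 15530 at PN1d, and the part of liver RNA in its level was not tested. Vcam1, an adhesion molecule of stroma and activated vessels, was at 9.74 to 10.23 at PN7d and 9.76 to 9.94 at E16d, with 8.97 at PN1d, and its net difference of 0.17 became 0.24 and passed without PN7d replicate 2. Lum, a collagen-binding proteoglycan, was at 8.40 to 8.82 at PN7d and 8.24 to 8.76 at E16d, with 7.61 at PN1d.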

How the data were processed

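Whole-kidney RNA of BALB/c mice was measured on Illumina MouseRef-8 arrays, 5 samples each at E16d, PN1d and PN7d, and grouped by the age in the labels. The deposited values are log2 intensities that the authors had quantile-normalized after BeadStudio. A second table of 15 signal and 15 detection p columns, 30 in all, was not used, since no label ties its columns to samples. Its detection p-values and unnormalized signals were not analysed here.

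Of 24613 probes, 20984 had 1 gene symbol, 1 had several and 3628 had none. Probes whose mean exceeded the median of all values (6.22, an intensity of 74.5) at 1 or more ages were kept, and the brightest probe stood for each gene, which left 9531 genes. limma 3.58.1 in R 4.3.3 was fitted to all 15 arrays with age as the factor, and p-values of PN7d minus E16d were adjusted over all genes by the Benjamini-Hochberg method (threshold 0.05). Adjusted p-values and SEs in the text are limma's. Where a gene was at or under 6.22 on all arrays of the dimmer age, a fold is given as a bound against that level. The number of arrays limits the precision, with a median SD of 0.122 within PN7d and 0.0816 within E16d (log2). Scripts were tested on simulated data.

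Gene lists and members were chosen with earlier results of these data known. Named genes are the 10 largest increases and 10 largest decreases, marker genes, the 3 largest changes each way and the members against the trend of each list, genes the study names, and the 5 highest and 5 lowest at PN1d without a net change. Some of them are given only as counts. Promoters are RefSeq's (GRCm38.p6), matched by Entrez gene number, or else by symbol, for 7719 tested genes and searched on both strands. Alternatives were other filters on dim probes, the mean of a gene's probes, background correction, cyclic loess, other variance models, the methods' t-test, 10 arrays in place of 15, a replicate block and leaving out each array. Figures were drawn in Python 3.11.15 with matplotlib 3.10.9.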

Additional observations from a re-analysis of the deposited data

Results flagged for a closer look

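For 21 of 384 sets of 5 arrays, each a named gene at PN7d or E16d, 1 array lay apart from the other 4 by Dixon's criterion (5.47%), where chance gives about 1 in 20. PN7d replicate 4 was low for Slc5a2 (6.42, the others 9.65 to 10.17), Tinag (10.40), Ass1 (11.89), Aco1 (8.45) and Wnt7b (6.13), and high for Lyve1 (7.96). PN7d replicate 2 was low for Mgst1 (6.23, the others 9.19 to 10.36), Scd2 (11.98), Fasn (10.13) and Efnb1 (9.85). Replicate 3 of that age was low for Atp6v1b1 (7.92), and replicate 5 was high for Angpt2 (9.84) and Sfrp2 (9.38).

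At E16d, replicate 5 was low for Gpx3 (9.34) and Pecam1 (7.84) and high for Lyve1 (8.16). Replicate 4 was high for Ly6c1 (7.40) and Kdm5d (7.78, the others 5.75 to 5.83), replicate 2 was low for H3c11 (8.99) and Ehhadh (6.62), and replicate 1 was high for Efnb1 (10.43).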

How the results depend on the processing

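Of 192 genes named with a value, 176 passed the test. Under 1 or more alternatives 9 of these 176 lost their call and 4 of the others gained one, and 30 of 72 counts of list members called moved by over 1.5 times. The direction of 1 reversed under an alternative, Acadm, at -0.12 with the mean of its probes, which disagree. With the filter at the upper quartile fewer genes were tested, and 1942 were higher and 2025 lower at PN7d, with 109 higher and 120 lower at PN1d without a net change. Cyclic loess gave 3381 higher and 2791 lower and moved the median of all genes by 0.04. The methods' t-test gave 2890 higher and 2923 lower after Benjamini-Hochberg adjustment and 3106 and 3107 before it. Leaving out single arrays gave 2932 to 3089 higher and 2953 to 3062 lower.

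Medians of lists moved with the genes that the filter lets in, and only those of glycolysis (0.0362 under cyclic loess, up to 0.0118 without single E16d arrays) and angiogenic ligands (-0.0023 without PN7d replicate 5), both near 0, changed sign among the lists of nephron, stroma, vessel, metabolism and proliferation. Without a filter on dim probes they were -0.23 for nephron progenitors, -0.058 for the ureteric bud, -0.36 for nascent nephrons, 0.14 for podocytes, 0.80 for proximal transporters, 1.04 for the loop, 0.60 for the distal tubule, 0.63 for intercalated cells, 0.49 for tubule transcription factors, -0.23 for stromal regulators, 0.10 for endothelium, 0.39 for fatty acid oxidation, 0.25 for amino acids and 0.30 for redox genes. With the filter at the upper quartile they were -0.61 for nephron progenitors, -0.34 for the ureteric bud, 0.55 for podocytes, 1.42 for proximal transporters, 1.07 for the brush border, 1.33 for the loop, 0.63 for principal cells, 1.02 for intercalated cells, -0.79 for stromal regulators, 0.67 for basement membrane, 0.24 for smooth muscle, 2.02 for gluconeogenesis, 0.66 for fatty acid oxidation and 0.58 for amino acids. The podocyte median was 0.53 under cyclic loess, and that of fatty acid oxidation was 0.37 with the mean of a gene's probes. Without single arrays the medians ran from -0.56 to -0.44 for nephron progenitors, 0.46 to 0.51 for podocytes and -0.18 to -0.078 for sterol synthesis.

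The samples were not treated as paired by replicate number. Deviations of PN7d and E16d arrays with the same number correlated at -0.07 to 0.21, and 3 of 5 matched their own number best. Whether arrays of the same number shared their handling was not tested. With the replicate number as a block 3095 genes were higher and 3090 lower. Jag1 (adjusted p = 0.00798) and Cs (adjusted p = 0.0455) passed with the block, Cs also under cyclic loess (0.18, adjusted p = 0.011). Atp5e lost its call under cyclic loess (adjusted p = 0.059) and under the methods' t-test after Benjamini-Hochberg adjustment. The level of genes near 6.22 limits how large a fall can be measured.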
